A study of Oryza sativa with 18 samples.

Results

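The heat shock genes of rice were described in input RNA and in m6A peaks of Nipponbare panicles and flag leaves. The members were every gene of the deposited expression table whose description names a heat shock protein or a heat stress transcription factor, which gave 72 of 38663 genes. From their descriptions, 22 were small heat shock proteins (small HSPs), 20 were HSP70 proteins, 6 were HSP90 proteins, 20 were heat stress transcription factors and 4 were other genes. Levels were read in 9 input libraries, 3 each of panicles at the booting stage, panicles at the flowering stage and flag leaves at the flowering stage. All plants were of the cultivar Nipponbare with no transgene or stress treatment named, grown in a field, and organs were taken at about 3 PM, with booting panicles from 3 August and flowering panicles from 14 August. The labels give no collection day for the flag leaves, and for panicles the stage cannot be told apart from the day. Fragments of poly(A) RNA of about 100 nt were split into an input of 10% and a remainder that was enriched with an antibody against m6A, N6-methyladenosine, a methyl mark on mRNA. The 9 enriched libraries enter only through the authors' 3 peak lists, 1 for each group.

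Heat shock proteins are chaperones that keep other proteins folded. In plants, heat stress transcription factors of class A act as activators of heat shock genes, while members of classes B and C lack the activation motif of class A, and several class B members act as repressors. Small HSPs bind unfolding proteins without ATP and are grouped by class or compartment. Classes I, II and III lie in the cytosol or nucleus, and separate groups are named for plastids, mitochondria and peroxisomes. HSP70 and HSP90 are ATP-driven chaperones that act in normal growth (the cognate forms) as well as under heat, and HSP90 also holds signalling proteins. Many of these genes are active in developing anthers, seeds and pollen without any heat.

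FPKM (fragments per kilobase of transcript, scaled to the mapped fragments of the library) summed to between 504583 and 569592 per library, and Pearson correlations of log2(FPKM + 1) between libraries of a group were 0.9875 to 0.9956. The number of reads per library was not used here, so no counting interval is given. Nothing in the labels says that libraries of a group came from separate plants, and p-values here reflect only how much these libraries vary, which may be technical. RuBisCO activase (LOC_Os11g47970), a leaf marker, stood at 15106 to 15986 FPKM in leaves, 1263 to 1474 in flowering panicles and 55.5 to 78.2 in booting panicles. Of the 4 leaf markers 3 were highest in leaves, and photosystem II 22 kDa protein (LOC_Os04g59440) was highest in flowering panicles. The 4 panicle markers, all MADS-box genes, summed to 676 to 1155 FPKM in panicles and 5.0 to 7.67 in leaves. The 4 pollen markers summed to 5537 to 6387 FPKM in flowering panicles, against 12.7 to 17.5 in booting panicles and 8.42 to 19.8 in leaves. The 4 markers of tapetum and young anthers summed to 531 to 1143 FPKM in booting panicles, against 3.63 to 3.97 in flowering panicles and 0.676 to 1.62 in leaves. The 2 meiosis markers were highest in booting panicles, at a sum of 89.8 to 102 FPKM, against 20.1 to 25.3 at flowering and 1.29 to 1.49 in leaves. No marker was listed at 0 in any library. In these bulk samples, fewer cells of a type and less RNA per cell cannot be told apart.

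Changes were tested with limma on log2(FPKM + 1) over the 23355 genes with at least 1 FPKM in 3 or more libraries. The threshold for a call was a Benjamini-Hochberg adjusted p (over all genes tested) under 0.05, together with a rise or fall of at least 1 on the log2 scale. Of the 72 members, 59 were tested, and the other 13 reached at most 1.01 FPKM in any library. Of the 59, 9 had a mean of at least 1 FPKM in 1 group only, the booting panicle for each, and so passed the filter through that group. Flowering panicles enter both main comparisons, and flag leaves enter 2 of the 3.

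From booting to flowering, 5 of 6 class I small HSPs rose and organellar small HSPs split, while 1 of 16 HSP70 genes was called (3 of 16 with equal library sums or quantile normalization). Of the 59 members tested 15 rose and 7 fell, where 18.1% of all genes tested rose and 15.3% fell. The members' median log2 change was -0.19, beside -0.09 over all genes tested. Among the 17 small HSPs tested 10 rose and 4 fell, with a median of 1.24. Of the 4 that fell, 3 had passed the filter through the booting panicle alone. Among the 16 factors 3 rose and 1 fell, among the 16 HSP70 genes 1 rose, among the 6 HSP90 genes 1 rose and 1 fell, and among the 4 other members 1 fell. With equal library sums 14 members rose and 11 fell, and with quantile normalization 15 rose and 12 fell. By class, HSP70 genes then had 1 higher and 2 lower under either scaling, HSP90 genes 1 and 2 with equal library sums and 1 and 3 with quantile normalization, and factors 3 and 1, then 3 and 2. With a pseudocount of 0.1 the factors had 3 higher and 3 lower, and HSP70 genes 2 and 0. These scalings moved the median of all genes from -0.09 to -0.20 and -0.16.

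Between flowering panicles and flag leaves, 19 members were called higher in the panicle and 4 lower, where 31.0% of all genes tested were higher and 11.5% lower. Small HSPs had 9 called higher and none lower, HSP70 genes 6 and 2, HSP90 genes 2 and 0, and factors 2 and 2. With a pseudocount of 0.1, which gives low genes more weight, 28 members were called higher and 4 lower, and factors 7 and 2. With quantile normalization the split of all members was 13 higher and 8 lower, that of small HSPs 8 and 2 and that of HSP70 genes 1 and 3. The share of all called genes that were higher in the panicle then went from 72.9% to 47.1%, and the median of all genes moved from 0.44 to -0.12. Between booting panicles and flag leaves 29 members were called higher in the panicle and 7 lower, where 36.4% of all genes tested were higher and 17.7% lower. With quantile normalization that split was 21 and 10, the share of all called genes higher in the panicle went from 67.3% to 50.6%, and the median of all genes moved from 0.51 to 0.00. Some of the 29 had passed the filter through the booting panicle alone. They were LOC_Os02g26600, LOC_Os03g25120, LOC_Os06g35960, LOC_Os10g07210, LOC_Os10g30162, LOC_Os10g30180 and LOC_Os11g08440.

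**Figure D1:**
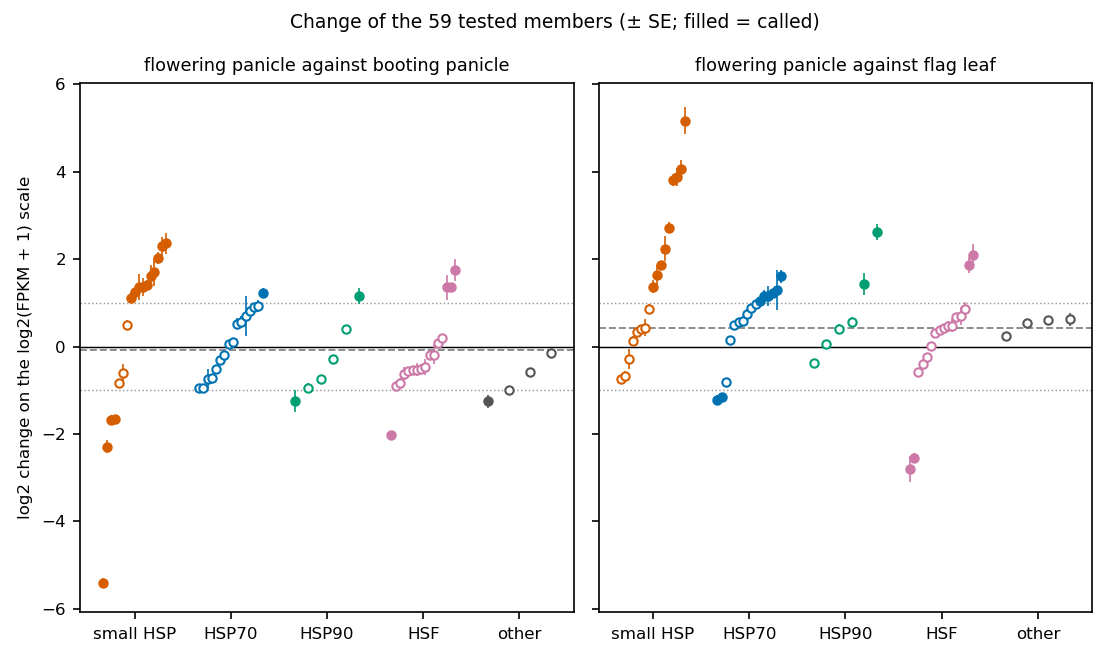
Log2 change (y axis, log2(FPKM + 1) scale) of each of the 59 tested members, by class, for flowering against booting panicles and for flowering panicles against flag leaves. Points are limma estimates with their SE, filled where called, dotted lines mark a change of 1 either way and the dashed line is the median of all 23355 genes tested. Small HSPs span from -5.41 to 2.36 between the panicle stages, and HSP70 genes from -0.94 to 1.22.

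The most abundant factor was of class A in every group, A-1 in panicles and A-2d in leaves. A-1 (LOC_Os03g63750), of the A1 group that in tomato holds the master regulator of the heat response, had levels close together in the 9 libraries. It stood at 45.3, 45.3 and 41.6 FPKM in booting panicles, 53.3, 50.6 and 48.9 in flowering panicles and 49.9, 49.6 and 51.1 in leaves. Booting libraries were below all others, and its log2 changes of 0.21 between panicle stages and 0.02 against leaves were not called. The latter turned its sign with equal library sums (-0.060) and with quantile normalization (-0.250).

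A-2d (LOC_Os03g06630), of the A2 group known as heat-induced activators, held 56.8% of the summed factor FPKM there. It stood at 9.14, 8.99 and 9.68 FPKM in booting panicles, 13.1, 35.1 and 34.3 in flowering panicles and 189, 181 and 174 in leaves. The 3 groups did not overlap, and flowering replicate 1 lay well below the other two flowering libraries. The log2 change was 1.35 (SE 0.29, adjusted p = 0.00176) from booting to flowering and -2.80 (SE 0.29, adjusted p = 7.84e-06) against leaves. A-4d (LOC_Os05g45410) had the same order, at 0.85, 0.832 and 0.759 FPKM in booting panicles, 3.69, 3.08 and 4.22 in flowering panicles and 28.5, 26.3 and 23.8 in leaves. Its change was 1.36 between panicle stages and -2.55 against leaves, and with a pseudocount of 5 the former was 0.574 and not called. The leaf markers summed to 151 to 205 FPKM at booting, 1900 to 2292 at flowering and 18180 to 19066 in leaves, the same order as these 2 factors, and their part in the changes was not tested.

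In contrast A-2b and A-2c were highest in booting panicles. A-2b (LOC_Os07g08140) fell from 15.8, 17.2 and 18.2 FPKM in booting panicles to 3.22, 3.4 and 3.66 at flowering, a log2 change of -2.03 (SE 0.09, adjusted p = 1.84e-08). Leaves held 2.27, 2.6 and 2.08 FPKM of A-2b. A-2c (LOC_Os10g28340) stood at 24.7, 28.6 and 30.6 FPKM in booting panicles, 15.2, 13.3 and 17.6 in flowering panicles and 11.6, 11 and 11.9 in leaves. The booting libraries of A-2c were above all others, and its change of -0.82 between stages was not called, while its 1.21 between booting panicles and leaves was, except with a pseudocount of 5 (0.994) or quantile normalization (0.774). A-2a (LOC_Os03g53340) stood at 0.718, 1.39 and 0.715 FPKM at booting, 1.03, 0.169 and 1.03 at flowering and 0.0402, 0.0611 and 0.030 in leaves, with overlap of the panicle stages, and was called in neither main comparison, except against leaves with a pseudocount of 0.1 (2.29).

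B-1 (LOC_Os09g28354), of the class B factors, which in Arabidopsis act as repressors, was highest in flowering panicles. It stood at 7.07, 9.55 and 3.52 FPKM in booting panicles, 25.5, 25.9 and 19.7 in flowering panicles and 4.52, 5.45 and 4.31 in leaves. The flowering libraries lay above all others, while booting and leaf libraries overlapped. It rose by a log2 change of 1.75 (SE 0.26, adjusted p = 0.000129) from booting to flowering and was higher than in leaves by 2.10 (SE 0.26, adjusted p = 2.81e-05). B-4b (LOC_Os07g44690) reached 5.02 FPKM at most and was called higher in flowering panicles than in leaves (1.87), but not with a pseudocount of 5 (0.64). The other factors tested were called in neither main comparison, among them A-4b, A-5 and A-9, which lay between 8.76 and 14.5 FPKM in all 9 libraries. Of these 3, A-5 (LOC_Os02g29340) was called lower than in leaves with quantile normalization (-1.03). The 4 factors not tested were C-1a, C-1b and 2 with putative descriptions.

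Heat shock factor-binding protein 1 (LOC_Os06g16270), which in animals and in Arabidopsis binds heat shock factors and dampens their activity, fell at flowering. It stood at 31, 35.3 and 36 FPKM in booting panicles, 10.2, 14.2 and 17.5 in flowering panicles and 8.8, 8.44 and 8.3 in leaves. The booting libraries lay above all others, and the log2 change between panicle stages was -1.25 (SE 0.15, adjusted p = 2.87e-05). The DNAJ N-terminal domain gene LOC_Os10g42439, whose domain is that of HSP70 partners, had means of 29.5 ± 2.26, 26.4 ± 2.52 and 17.9 ± 0.494 FPKM (SD, n = 3) in booting panicles, flowering panicles and leaves and was not called in any comparison. The heat shock protein-like gene LOC_Os07g32950 had means of 5.87 ± 0.251, 3.59 ± 0.568 and 2.02 ± 0.132 FPKM (SD, n = 3) in the same order and was called between booting panicles and leaves only (1.19), not with a pseudocount of 5 (0.631) or quantile normalization (0.536).

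**Figure D2:**
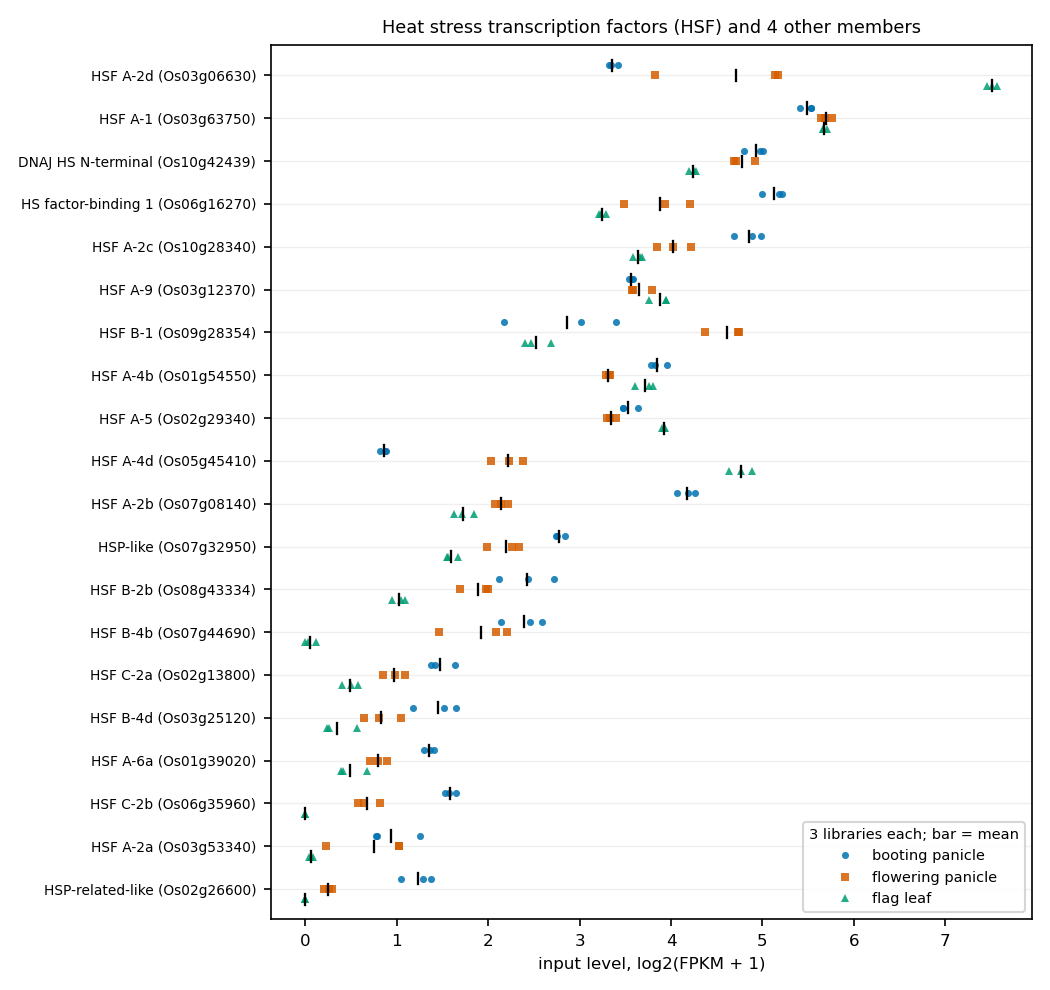
Level of the 16 tested heat stress transcription factors (HSF) and the 4 other members in each input library (x axis, log2(FPKM + 1)), with 3 libraries per group as points and the group mean as a bar. A-2d and A-4d are highest in the 3 leaf libraries, B-1 in the 3 flowering libraries, and the 9 libraries of A-1 lie close together.

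Small HSPs summed to 349 ± 41.8 FPKM at booting, 658 ± 145 at flowering and 144 ± 8.24 in leaves (SD, n = 3). The 6 class I genes, which encode the most abundant cytosolic small HSPs under heat, made up 142 of the booting mean, 364 of the flowering mean and 27.4 of the leaf mean. Per library the class I sum was 112, 159 and 157 FPKM in booting panicles, 432, 284 and 377 in flowering panicles and 27.8, 28.1 and 26.5 in leaves. The 3 groups did not overlap. Of the 6 class I genes 5 rose from booting to flowering, and all 6 were called higher in flowering panicles than in leaves. With equal library sums 4 of 6 rose, as LOC_Os03g15960 then stood at 0.982. The pollen markers summed to 5657, 6387 and 5537 FPKM in flowering replicates 1, 2 and 3, but the single markers differed in their order. Expansin-B9 (LOC_Os10g40090) stood at 3612, 3493 and 2943 FPKM and pollen receptor-like kinase 3 (LOC_Os11g40550) at 47.6, 46.7 and 41.3. Pollen-specific C13 (LOC_Os04g32680) stood at 1468, 2072 and 1873 FPKM and profilin-A (LOC_Os10g17660) at 530, 775 and 680. Pollen markers and class I genes were both higher at flowering, and the part of pollen in the class I levels was not tested.

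The 17.4 kDa class I gene LOC_Os03g16020 changed most among the class I genes between panicle stages. It stood at 14.4, 24.2 and 22.9 FPKM in booting panicles, 127, 76.6 and 109.7 in flowering panicles and 5.75, 6.96 and 5.42 in leaves. The groups did not overlap, with a log2 change of 2.30 (SE 0.22, adjusted p = 4.39e-06) between stages and 3.88 (SE 0.22, adjusted p = 5.92e-08) against leaves. The 16.9 kDa class I gene 2, LOC_Os01g04380, differed most between flowering panicles and leaves. Its levels were 15.6, 40.2 and 18.2 FPKM at booting, 103, 60.4 and 70.3 at flowering and 1.13, 1.41 and 0.914 in leaves, and booting replicate 2 was above the other two booting libraries. Its change was 1.71 between stages (SE 0.31, adjusted p = 0.000568) and 5.17 against leaves (SE 0.31, adjusted p = 1.07e-07).

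The other class I genes followed in part. The 16.9 kDa class I gene 1, LOC_Os01g04370, stood at 3.0, 3.82 and 3.37 FPKM at booting, 19.2, 13.3 and 18.4 at flowering and 0.377, 0.239 and 0.20 in leaves, and rose by 2.02. The 18.1 kDa gene LOC_Os03g16030 stood at 14, 16.4 and 22.7 FPKM at booting, 56, 33.5 and 52.4 at flowering and 2.29, 1.71 and 1.54 in leaves, and rose by 1.36. The 17.9 kDa gene LOC_Os03g15960 stood at 38.5, 46.1 and 53.4 FPKM at booting, 110.4, 83.3 and 110.0 at flowering and 14.5, 14 and 14.6 in leaves, and rose by 1.12. The groups did not overlap for these 3 genes. The 17.7 kDa class I gene LOC_Os03g16040 differed from its class. It stood at 26.3, 28.1 and 36.3 FPKM at booting, 15.7, 16.5 and 16.6 at flowering and 3.75, 3.76 and 3.75 in leaves, so its booting libraries were the highest, and its change of -0.84 between stages was not called.

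The class I genes lie in 2 clusters with related genes. On chromosome 3 the 4 genes LOC_Os03g15960, LOC_Os03g16020, LOC_Os03g16030 and LOC_Os03g16040 run from base 8805567 to base 8838510, in the coordinates of the deposited table, whose genome build is not given in the sources used here. LOC_Os03g16020 and LOC_Os03g16030 are 446 bases apart on opposite strands. The same cluster holds LOC_Os03g16040, the only class I gene whose booting mean was above its flowering mean. On chromosome 1 the genes LOC_Os01g04340, LOC_Os01g04350, LOC_Os01g04370 and LOC_Os01g04380 run from base 1934117 to base 1952771. How reads shared by such related copies were assigned is not given in the sources used here, so the split of a level between neighbours is less certain than their sum. In all, 17 members lay within 50 kb of another member, 10 of them small HSPs, 5 HSP70 genes and 2 HSP90 genes.

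The 17.9 kDa heat shock protein 2 (LOC_Os01g04350), whose description names no compartment class, was the most abundant small HSP in every group. It stood at 70.5, 89.6 and 46.7 FPKM in booting panicles, 284, 179.6 and 171 in flowering panicles and 57.5, 70.9 and 70.2 in leaves. Flowering libraries were above all others, and booting and leaf libraries overlapped. Its log2 change was 1.61 (SE 0.24, adjusted p = 0.000151) between stages, 1.63 (adjusted p = 0.00012) against leaves and 0.01 between booting panicles and leaves. Its neighbour LOC_Os01g04340, a 16.6 kDa heat shock protein, reached 0.252 FPKM at most and was not tested. The 18.9 kDa gene LOC_Os02g03570 stood at 2.65, 3.23 and 2.88 FPKM at booting, 10.1, 8.66 and 9.36 at flowering and 4.4, 5.58 and 4.19 in leaves and rose by 1.40 between stages, without overlap. With a pseudocount of 5 that change was 0.860 and not called.

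Organellar small HSPs went in both directions. The chloroplastic small HSP LOC_Os10g07210 was a gene of booting panicles, at 55.1, 55.4 and 69 FPKM there, 0.305, 0.36 and 0.608 in flowering panicles and 0.167, 0.14 and 0.0678 in leaves. It fell, with a log2 change of -5.41 (SE 0.12, adjusted p = 2.09e-10), the largest change of any member between the panicle stages, and passed the filter on low values through the booting panicle alone. The markers of tapetum and young anthers also moved this way and stood at 1143, 531 and 998 FPKM in booting replicates 1, 2 and 3. The part of these markers in the change of LOC_Os10g07210 was not tested. Against leaves the flowering level was not called, except with a pseudocount of 0.1 (1.206).

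Of the mitochondrial small HSPs, which protect mitochondrial proteins, LOC_Os06g11610 (26.2 kDa) fell and LOC_Os02g52150 (24.1 kDa) rose. LOC_Os06g11610 stood at 28.2, 31.1 and 40.3 FPKM at booting, 5.77, 5.23 and 6.86 at flowering and 1.56, 2.12 and 1.42 in leaves, with no overlap and a log2 change of -2.29 (SE 0.15, adjusted p = 2.67e-07). Its call against leaves (1.37) ended with a pseudocount of 5 (0.708) and with quantile normalization (0.629). LOC_Os02g52150 stood at 7.27, 11 and 17.5 FPKM at booting, 37, 20.1 and 37.6 at flowering and 6.06, 5.91 and 5.05 in leaves. Its flowering libraries were above all others, with a change of 1.36 between stages (SE 0.29, adjusted p = 0.00168) and 2.24 against leaves.

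The peroxisomal gene LOC_Os06g14240 was lowest in booting panicles. It stood at 1.47, 2.73 and 3.06 FPKM at booting, 22.6, 11.3 and 16.6 at flowering and 19.2, 18.7 and 22.2 in leaves. It rose by 2.36 (SE 0.24, adjusted p = 7.28e-06), while flowering and leaf libraries overlapped, with a difference of -0.28 (SE 0.24, adjusted p = 0.288). The description of the 18.8 kDa class V gene LOC_Os07g33350 names no organelle. This gene stood at 1.03, 1.24 and 0.996 FPKM at booting, 4.49, 3.82 and 3.53 at flowering and 7.03, 7.59 and 7.29 in leaves. It rose by 1.24 between stages (0.553 and not called with a pseudocount of 5) and its -0.75 against leaves was called with quantile normalization only (-1.383). A class II gene (LOC_Os10g30162) and a 23.2 kDa gene (LOC_Os10g30180), 5158 bases apart on chromosome 10, reached 3.77 FPKM at most, were highest in booting panicles and fell by 1.67 and 1.66 on the log2 scale, though with a pseudocount of 5 these were -0.58 and -0.63 and not called. Both passed the filter through the booting panicle alone. The class III gene LOC_Os02g54140 and the class VI gene LOC_Os05g42120 were called in neither main comparison, except the latter against leaves with quantile normalization (-1.52).

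**Figure D3:**
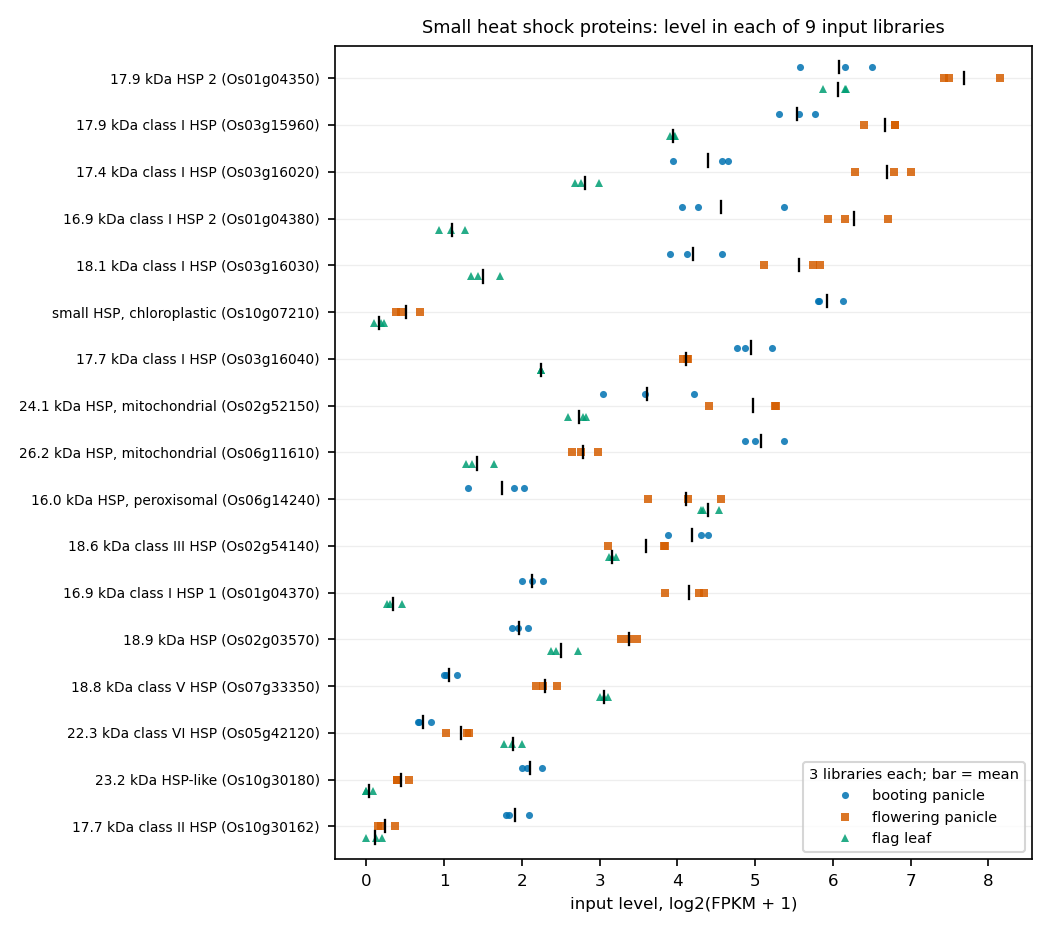
Level of the 17 tested small HSPs in each input library (x axis, log2(FPKM + 1)), with 3 libraries per group as points and the group mean as a bar. The class I genes other than LOC_Os03g16040 are highest in flowering panicles and lowest in leaves, while the chloroplastic LOC_Os10g07210 is high in booting panicles and near 0 in leaves.

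HSP70 genes had the largest class sum in every group, with 2707 ± 275 FPKM at booting, 2212 ± 130 at flowering and 1594 ± 136 in leaves (SD, n = 3). The cognate gene LOC_Os11g47760 was the most abundant member in both panicle groups. It stood at 1479, 1557 and 1800.4 FPKM in booting panicles, 972, 876 and 1028 in flowering panicles and 338, 352 and 653 in leaves. The groups did not overlap, and leaf replicate 3 was far above the other two leaf libraries. Its change of -0.75 between stages was not called, while its 1.16 against leaves was (SE 0.23, adjusted p = 0.000907). Without leaf replicate 1 the latter was 0.996 and not called, and with quantile normalization the change between stages was called at -1.438.

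The 2 stromal HSP70 genes, which act in protein import and folding in chloroplasts, were highest in leaves. LOC_Os05g23740, the most abundant HSP70 there, stood at 76.2, 90.2 and 93.9 FPKM in booting panicles, 222, 172 and 218 in flowering panicles and 484, 472 and 455 in leaves. With FPKM as deposited, a pseudocount of 1 and all 9 libraries it was the only HSP70 called between panicle stages (1.22, SE 0.12, adjusted p = 4.56e-06). It was lower than in leaves, with a log2 change of -1.21 (SE 0.12, adjusted p = 3.64e-06). LOC_Os12g14070, the other stromal gene, stood at 34, 33.4 and 28.8 FPKM at booting, 56.6, 53.1 and 59.9 at flowering and 105, 101 and 96.1 in leaves, with changes of 0.80 and -0.82 that were not called, though the latter was with quantile normalization (-1.02). Both genes followed the order of the leaf markers, whose part was not tested.

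Other HSP70 genes were called higher in flowering panicles than in leaves, though not under every scaling. The cognate gene LOC_Os03g16860 stood at 216, 228 and 307 FPKM at booting, 396, 361 and 343 at flowering and 175, 172 and 144 in leaves, a difference of 1.16 (SE 0.14, adjusted p = 2.03e-05). HSP70 protein 16 (LOC_Os06g46600) stood at 20.9, 22 and 21 FPKM at booting, 37, 46.6 and 39 at flowering and 16.5, 17.3 and 16.8 in leaves, a difference of 1.22 (adjusted p = 2.44e-07). With quantile normalization these 2 differences were 0.959 and 0.875 and not called. HSP70 protein 15 (LOC_Os05g08840), of the group related to HSP110 nucleotide exchange factors, stood at 44.3, 48.1 and 50.1 FPKM at booting, 23, 24.7 and 25.1 at flowering and 11, 11 and 11.9 in leaves. Its difference of 1.04 against leaves was not called with equal library sums (0.959), quantile normalization (0.642) or a pseudocount of 5 (0.843). Its change of -0.94 between stages was not called, except with equal library sums (-1.077). The gene LOC_Os01g08560 of the same name stood at 210.5, 221 and 250.4 FPKM at booting, 124, 104 and 125 at flowering and 63.1, 63.5 and 61.7 in leaves, and was called between booting panicles and leaves (1.84). Its -0.94 between stages was not called, except with equal library sums (-1.08) or quantile normalization (-1.19), and its 0.89 between flowering panicles and leaves was not called.

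The mitochondrial HSP70 LOC_Os09g31486 split within groups. It stood at 15.1, 17.4 and 49.3 FPKM in booting panicles, 55.8, 53.1 and 19.6 in flowering panicles and 16.2, 15.4 and 14.5 in leaves. Booting replicate 3 lay with the 2 high flowering libraries, and flowering replicate 3 lay with the 2 low booting libraries. Its change between stages was 0.70 (SE 0.46, adjusted p = 0.187). Without booting replicate 3 this was 1.212 and called, and without flowering replicate 3 it was 1.171 and called. Its call against leaves (1.29, adjusted p = 0.0241) was lost without any filter (adjusted p = 0.0562) and without flowering replicate 1 (0.0933), flowering replicate 2 (0.087), leaf replicate 2 (0.0527) or leaf replicate 3 (0.0547). It was also lost with quantile normalization (adjusted p = 0.0986). The other 2 mitochondrial genes had no such split: LOC_Os02g53420 stood at 129 ± 7.4, 138 ± 6.9 and 98 ± 3.38 FPKM (SD, n = 3), and LOC_Os03g02260 at 46.2 ± 6.96, 66.6 ± 9.32 and 39.1 ± 1.04 FPKM (SD, n = 3), in booting panicles, flowering panicles and leaves.

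Among the other cognate genes, LOC_Os12g38180 was highest in leaves, LOC_Os03g60620 varied little, and LOC_Os03g16920 and LOC_Os11g08440 were low. LOC_Os12g38180 stood at 8.96, 9.4 and 8.59 FPKM at booting, 8.6, 6.45 and 8.28 at flowering and 18.4, 18.1 and 18.5 in leaves, a difference of -1.15 (SE 0.10, adjusted p = 1.28e-06) that was -0.875 and not called with a pseudocount of 5. LOC_Os03g60620 stood between 103 and 119 FPKM in all 9 libraries and was not called in any comparison. LOC_Os11g08440 reached 1.93 FPKM at most. Its 0.98 between flowering panicles and leaves was not called, except with a pseudocount of 0.1 (3.43) or without flowering replicate 1 (1.03). Of the 20 HSP70 genes 4 were not tested, and they reached at most 0.443 FPKM.

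HSP90 genes summed to 1602 ± 148 FPKM at booting, 926 ± 96.5 at flowering and 687 ± 29.3 in leaves (SD, n = 3). The cytosolic pair on chromosome 9 held most of this. HSP81-3 (LOC_Os09g30418) stood at 802, 890.0 and 949.9 FPKM at booting, 499, 399 and 476 at flowering and 312, 322 and 288 in leaves. HSP90 (LOC_Os09g30412), 17430 bases away, stood at 475, 529 and 566 FPKM at booting, 329, 282 and 321 at flowering and 235, 242 and 222 in leaves. For both the 3 groups did not overlap, with booting highest and leaves lowest. Their changes between stages, -0.94 and -0.75, were not called, whereas those between booting panicles and leaves, 1.51 and 1.16, were. HSP81-3 was called between stages with equal library sums (-1.085), with quantile normalization (-1.581), and without booting replicate 1 (-1.010) or flowering replicate 1 (-1.009), and HSP90 with quantile normalization (-1.369). In the deposited table an aspartic protease gene on the same strand, LOC_Os09g30438, spans all 5364 bases of HSP81-3, with means of 0.629 to 3.07 FPKM in the 3 groups. Only gene spans were compared, so whether exons of the pair overlap is not known here.

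HSP81-1 (LOC_Os08g39140), a cytosolic HSP90, fell between stages. It stood at 62.8, 52.1 and 108 FPKM at booting, 35.3, 24.5 and 29 at flowering and 9.56, 12.7 and 8.72 in leaves. The groups did not overlap, and booting replicate 3 was far above the other two booting libraries. The log2 change was -1.25 (SE 0.25, adjusted p = 0.000992) between stages, which without booting replicate 3 was -0.944 and not called, and 1.43 against leaves (adjusted p = 0.000333). HSP82 (LOC_Os04g01740) was low, at 1.29, 2.08 and 2.42 FPKM at booting, 6.29, 3.83 and 6.53 at flowering and 0.0368, 0.0646 and 0.0301 in leaves. It rose by 1.15 (SE 0.19, adjusted p = 0.000253), which was 0.985 without booting replicate 1 and 0.599 with a pseudocount of 5, and was not called in either. Against leaves HSP82 was higher by 2.62 (adjusted p = 3.96e-07).

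The organellar HSP90 genes were called in neither main comparison. The mitochondrial HSP90-6 (LOC_Os12g32986) stood at 71.5, 84.2 and 81.4 FPKM at booting, 68.1, 55.9 and 70.5 at flowering and 63, 61.9 and 61.7 in leaves, and was called in no comparison. The chloroplastic HSP90-5 (LOC_Os08g38086) stood at 41.2, 45.1 and 41.1 FPKM at booting, 57.5, 50.4 and 62.8 at flowering and 73.6, 74.3 and 74.5 in leaves, highest in leaves, and was called between booting panicles and leaves with quantile normalization only (-1.06).

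**Figure D4:**
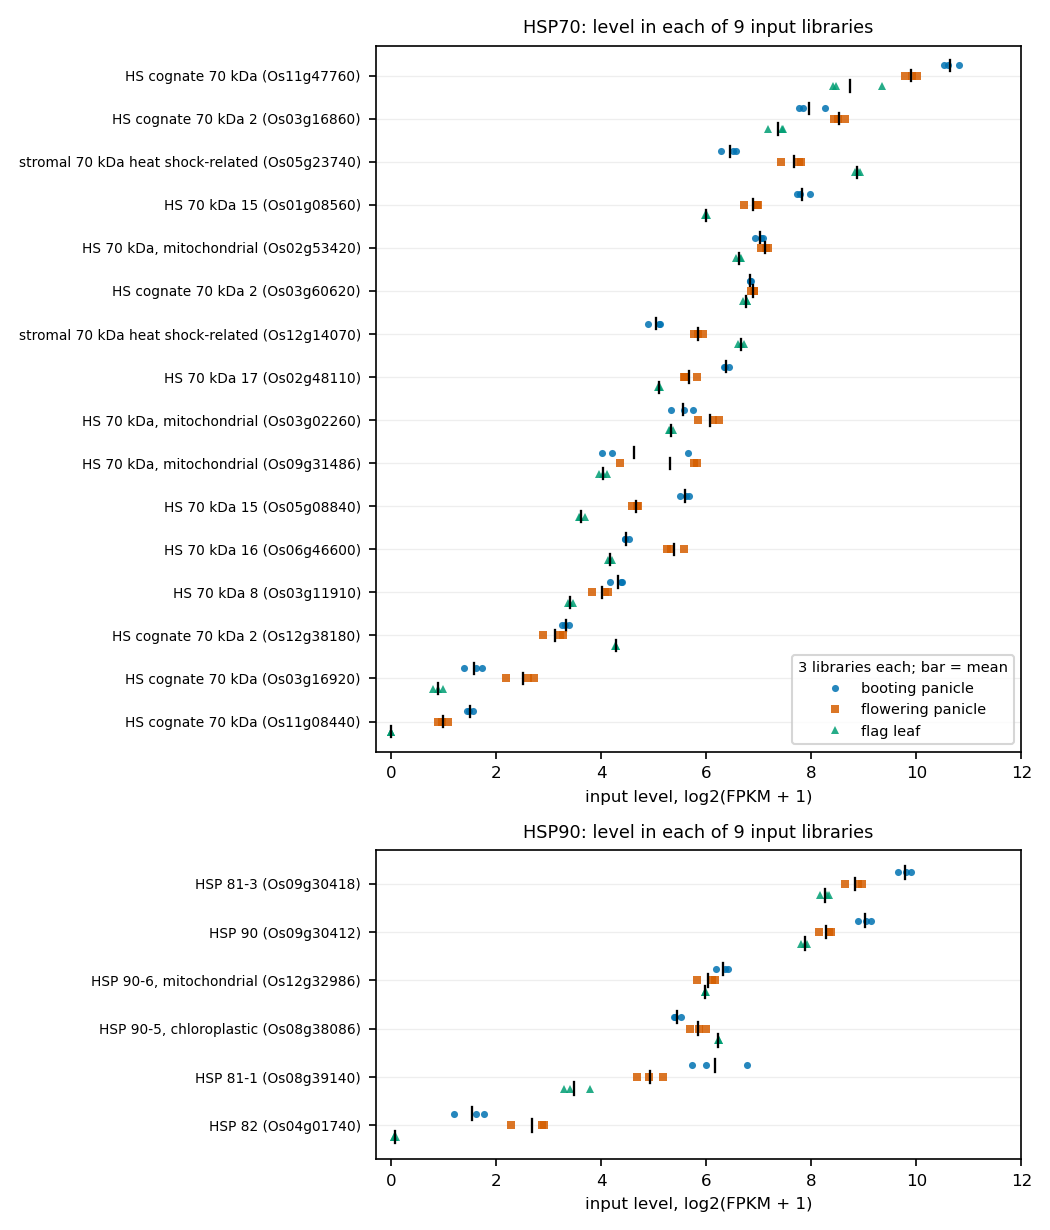
Level of the 16 tested HSP70 genes (top) and the 6 HSP90 genes (bottom) in each input library (x axis, log2(FPKM + 1)), with 3 libraries per group as points and the group mean as a bar. LOC_Os11g47760 and the chromosome 9 HSP90 pair are highest in booting panicles, the stromal HSP70 genes are highest in leaves, and the mitochondrial LOC_Os09g31486 is split within the panicle groups.

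A mixed list of 108 genes, here called the co-chaperone list, was chosen by description, and 98 of them were tested. Besides co-chaperones it holds chaperonins, Clp proteins, FKBP isomerases, 2 galactinol synthases and 2 multiprotein-bridging factors. It also holds 5 luminal-binding proteins, which belong to the HSP70 family but are not among the 20 HSP70 members counted here. From booting to flowering 17 rose (17.3%, beside 18.1% of all genes) and 9 fell (9.18%, beside 15.3%), with a median log2 change of -0.05. With equal library sums 10 rose and 15 fell, where 16.6% of all genes tested rose and 17.8% fell. A pseudocount of 5 gave 5 and 8, and quantile normalization 18 and 12, so the balance of higher and lower calls turned under some settings. Against leaves 36 were higher in flowering panicles (36.7%, beside 31.0% of all genes) and 12 lower (12.2%, beside 11.5%), or 24 and 17 with quantile normalization. BAG family regulators, which bind HSP70 as exchange factors, were called higher in flowering panicles than in leaves for 7 of 8 genes, or 5 of 8 with quantile normalization and 4 of 8 with a pseudocount of 5. From booting to flowering 4 of the 8 BAG genes fell, where 15.3% of all genes tested fell. With equal library sums or the replicate block 5 of the 8 fell. Other families of the list differed from BAG against leaves. DnaJ genes had 10 higher and 3 lower, FKBP isomerases 4 and 4, and Clp proteins 3 and 3. The following 4 genes of the list were chosen after their values were seen. Of the 4 HSP70-HSP90 organizing genes, which link both chaperones, 1 rose from booting to flowering (1.03) and 1 fell. The 1 that fell, LOC_Os02g43020, had means of 159 ± 19.3, 78.3 ± 10.5 and 31 ± 1.1 FPKM (SD, n = 3) in booting panicles, flowering panicles and leaves. Its log2 change of -1.02 between stages was called, but not with a pseudocount of 5 (-0.98), without booting replicate 3 (-0.92) or without flowering replicate 2 (-0.90). The ClpB gene LOC_Os08g15230, of the disaggregase family, ran the other way, at 5.96 ± 0.835, 13.5 ± 0.553 and 42.3 ± 0.654 FPKM (SD, n = 3). Its change of 1.07 between stages was called, but not with equal library sums (0.94), a pseudocount of 5 (0.76) or without booting replicate 3 (0.97). The ClpB1-like gene LOC_Os02g33420 stood at 14.8 ± 1.13, 8.32 ± 2.04 and 0.765 ± 0.0409 FPKM (SD, n = 3), with -0.79 between stages, not called, and 2.38 against leaves, called. Multiprotein-bridging factor 1c (LOC_Os06g39240), a coactivator that in Arabidopsis takes part in heat tolerance, had 52.8 ± 15.7, 37.7 ± 12.3 and 3.73 ± 0.904 FPKM (SD, n = 3) and was higher in flowering panicles than in leaves by 3.00.

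In the authors' peak lists, every HSP70 gene with a mean of at least 1 FPKM carried an m6A peak and no class I small HSP gene carried one. The booting list held 40 peaks in 38 members, the flowering list 42 peaks in 38 members and the leaf list 40 peaks in 36 members. There is 1 list per group, named for IP against input, so a difference between lists has no replicate check and no test was made. Fold enrichments are the authors' values and are read only within a list. Among members whose group mean reached 1 FPKM, 35 of 56 had a peak in booting panicles (62.5%, beside 68.9% of all genes at that level), 29 of 49 in flowering panicles (59.2%, beside 66.8%) and 32 of 45 in leaves (71.1%, beside 75.9%).

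By class, all HSP70 genes at or above 1 FPKM had a peak, 16 of 16 at booting, 15 of 15 at flowering and 14 of 14 in leaves. Of the small HSPs at that level 4 of 16, 2 of 14 and 5 of 13 had one. The booting peak of the 23.2 kDa gene LOC_Os10g30180 among these ran 755 of its 764 bases past the end of that gene, beside the overlapping opposite-strand gene LOC_Os10g30190. HSP90 genes had 5 of 6, 3 of 6 and 4 of 5, and factors 7 of 14, 6 of 11 and 6 of 10. Genes of the co-chaperone list had 81 of 97, 77 of 96 and 75 of 86. Gene length differs between these classes, since small HSPs had a median span of 962 bases and HSP70 genes one of 4603 bases. Among all genes with a span under 1500 bases and at least 1 FPKM, the share with a peak was 20.4% at booting, 18.4% at flowering and 30.01% in leaves. The small HSPs of such length had 3 of 13, 1 of 12 and 3 of 11, shares of 23.1%, 8.33% and 27.3%. No such share was taken over genes as long as the HSP70 genes.

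None of the 6 class I small HSPs had a peak in any list, while their means ran from 16.3 to 104 FPKM in flowering panicles and from 3.39 to 46.0 in booting panicles. The 17.9 kDa heat shock protein 2 (LOC_Os01g04350), at a mean of 211 ± 62.7 FPKM (SD, n = 3) at flowering, had none either. Among all genes under 1500 bases with at least 10 FPKM, 19.8% had a peak in flowering panicles, and of the 9 small HSPs among them none did. In booting panicles the share was 25.0% and 2 of 8 small HSPs had a peak. In the leaf the share was 36.6% and none of 3 small HSPs had one.

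Among longer members, HSP81-3 (LOC_Os09g30418) had no peak in any list at means of 307 to 881 FPKM, while HSP90 (LOC_Os09g30412) had a 3' UTR peak in all 3 lists, with folds of 6.16 at booting, 4.67 at flowering and 7.65 in the leaf. No peak within the span of any member carried another gene's ID. The factors A-2c (LOC_Os10g28340), A-2d (LOC_Os03g06630) and A-4d (LOC_Os05g45410) had no peak in any list, A-2d at 182 ± 7.49 FPKM (SD, n = 3) in leaves, whereas A-1, A-2b, A-4b, A-5, A-6a and A-9 had one in all 3. At 10 FPKM or more, 10 of 36 members lacked a peak at booting, 14 of 35 at flowering and 7 of 29 in leaves. Of these 8, 10 and 3 were small HSPs, and none was an HSP70 gene. No share over all genes was taken at 10 FPKM. At 5 FPKM or more, 28 of 40, 25 of 41 and 27 of 35 members had a peak in the same order of groups. Of all genes at 5 FPKM or more, 77.8%, 75.4% and 83.03% had one.

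Peaks of the members lay at the 3' end. The authors' annotation put 38 of 40 peaks in the 3' UTR in booting panicles (95.0%, beside 79.7% of all peaks), 37 of 42 in flowering panicles (88.1%, beside 78.5%) and 37 of 40 in leaves (92.5%, beside 79.2%). The HSP70 peaks were all in the 3' UTR, with median widths of 478 to 508 bases. In all 3 lists, 2 members had a 5' UTR peak besides the 3' UTR peak. HSP90-5 (LOC_Os08g38086), on the minus strand of chromosome 8, had a 5' UTR peak at 24128888 to 24129488 in every list, with folds of 8.99, 9.14 and 13.9 in booting panicles, flowering panicles and leaves, beside 3' UTR folds of 10.6, 9.76 and 16.5. A-4b (LOC_Os01g54550), on the plus strand of chromosome 1, had 5' UTR folds of 4.47, 3.39 and 2.86 and 3' UTR folds of 7.13, 4.4 and 6.14 in the same order.

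The folds of members were spread over each list. The medians of the booting, flowering and leaf lists were 9.60, 7.37 and 9.20, beside 10.3, 8.10 and 10.7 over all peaks of the same lists. The highest folds in a list were 28.2 for A-6a (LOC_Os01g39020) in booting panicles, 17.7 for the chloroplastic small HSP LOC_Os03g14180 in flowering panicles and 23.4 for the DNAJ domain gene LOC_Os10g42439 in leaves. The first 2 of these genes were low, at 1.56 and 0.677 FPKM in those groups. Within HSP70 the cognate gene LOC_Os11g47760 had folds of 8.99, 8.96 and 11.9 in booting panicles, flowering panicles and leaves. Its relative LOC_Os03g16860 had 1.63, 1.26 and 3.89. The stromal gene LOC_Os05g23740 had 5.0, 2.97 and 6.87.

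In all, 30 members had a peak in all 3 lists, 28 had none in any list and 14 had one in 1 or 2 lists. Of the 59 tested members 50.8% had a peak in all 3 lists and 32.2% in none, beside 57.0% and 29.2% of all genes tested. Peaks of a member overlapped by at least 1 base in 33 of the 34 members with a peak in both panicle lists, in 32 of 32 between booting panicles and leaves and in 32 of 32 between flowering panicles and leaves. Over all genes with a peak in both lists of a pair the shares were 99.4% for both panicle stages, 99.3% for booting panicles and leaves and 99.3% for flowering panicles and leaves. The exception among the members was the class II small HSP LOC_Os10g30162, with a 3' UTR peak in the booting list and a 5' UTR peak in the flowering list. HSP81-1 (LOC_Os08g39140) had a peak in booting panicles and leaves (folds of 1.97 and 4.06) and none in the flowering list. B-1 (LOC_Os09g28354) had peaks in flowering panicles and leaves and none in booting panicles, where its mean was 6.71 ± 3.03 FPKM (SD, n = 3). HSP82 (LOC_Os04g01740) had 1 in booting panicles only.

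**Figure D5:**
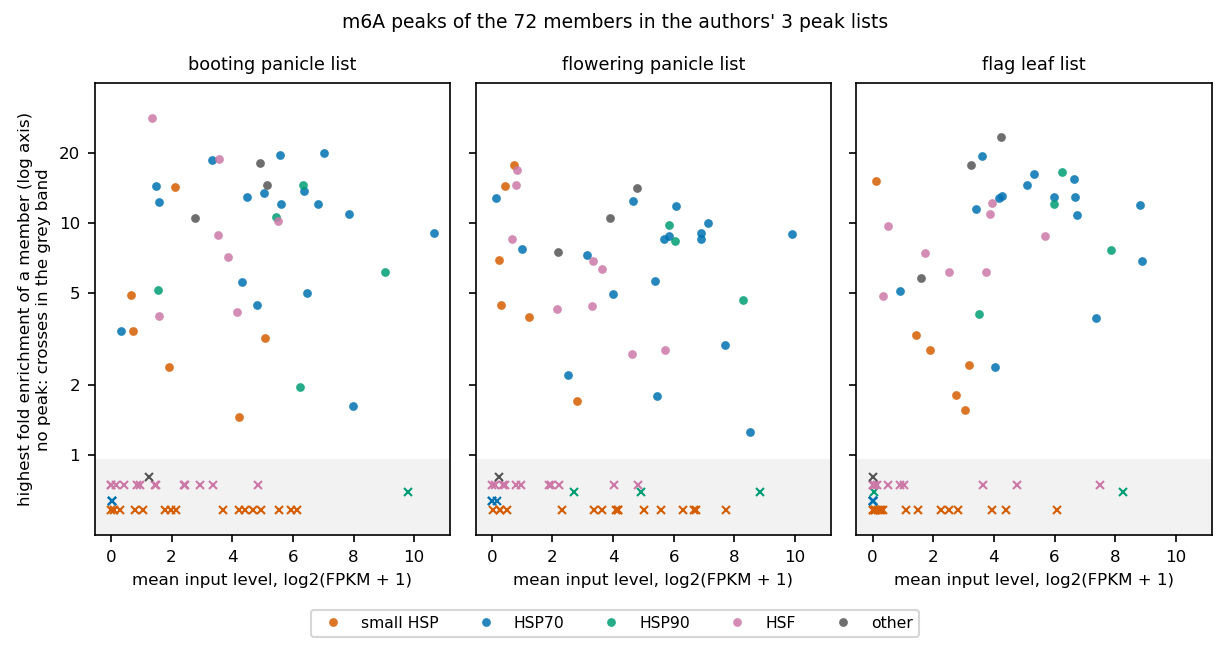
Highest fold enrichment of each of the 72 members in the authors' 3 peak lists (y axis, log scale) against its mean input level in that group (x axis, log2(FPKM + 1)), coloured by class, with members without a peak as crosses in the grey band. HSP70 genes at or above 1 FPKM all lie above the band, while small HSPs without a peak reach a mean of 211 FPKM in the flowering panel.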

How the data were processed

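The authors deposited 1 table of gene expression as FPKM for the 9 input libraries and 3 tables of annotated m6A peaks, 1 per group, labelled as IP against input. Per the submitters' processing notes ChIPseeker, HOMER, StringTie, HISAT2 and cutadapt were among the tools. The genome build, the peak caller, tool versions, the strand setting and the treatment of reads with several matches were not given in the sources used. The fold enrichment of a peak, a ratio per the file headers, was used only within its list. No genome sequence or promoter table was used here, and none of the member IDs matched the reference gene table, so gene names are those of the deposited tables.

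FPKM are not counts, so changes were tested on log2(FPKM + 1) with limma 3.58.1 under R 4.3.3, letting the prior variance follow the mean level, with the 9 inputs in 1 fit, for genes at 1 FPKM or more in at least 3 libraries. P-values were adjusted by Benjamini-Hochberg over all genes tested. A fold change on this scale understates the change of low genes. The genes named are the members called in either main comparison with a mean of at least 5 FPKM in their highest group and the 3 members with the highest mean in each class. Other members named were singled out after their values were seen. Classes were read from the deposited descriptions. The members, the co-chaperone list and the markers of leaf, panicle, pollen, tapetum with young anther and meiosis were chosen with earlier results of these data known. Members are described by counts beside all genes tested, with no test of the group as a whole. Alternatives were pseudocounts of 0.1 and 5, no filter, equal library sums, quantile normalization, a replicate block, each library left out in turn, a fold minimum and an expression minimum of 5 FPKM for peaks, and a stricter peak overlap. Tables and plots were made with Python 3.11.15, pandas 2.3.3 and matplotlib 3.10.9.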

Additional observations from a re-analysis of the deposited data

How the results depend on the processing

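The members called from booting to flowering were 22, and the 7 lower ones became 11 with equal library sums and 12 with quantile normalization. Between flowering panicles and leaves the 4 lower ones became 8 with quantile normalization. Between booting panicles and leaves the 36 called became 22, and the 29 higher ones 16, with a pseudocount of 5, under which the calls over all genes also fell, from 7802 to 4367, from 9930 to 5303 and from 12622 to 7815 in the 3 comparisons. When only peaks at or above the median fold of their list were kept, fewer members at 1 FPKM or more had a peak. Their number fell from 35 to 19 in booting panicles, from 29 to 12 in flowering panicles and from 32 to 17 in leaves. The shares were then 33.9%, 24.5% and 37.8% of members at that level, beside 39.7%, 36.7% and 44.7% of all genes. An overlap of at least 50% of the shorter peak left 33, 32 and 30 members with shared peaks.

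Leaving out each library in turn gave 22 to 24 members called from booting to flowering (15 to 16 higher, 6 to 9 lower), 22 to 23 between flowering panicles and leaves (18 to 19 higher, 4 lower) and 35 to 37 between booting panicles and leaves (28 to 30 higher, 7 lower). No called change of a named gene turned its direction under any alternative run. Small changes that were called neither before nor after did so. With equal library sums the flowering panicle minus leaf difference became -0.060 for A-1 (LOC_Os03g63750) and -0.029 for HSP90-6 (LOC_Os12g32986). With quantile normalization it became -0.250 for A-1, -0.359 for A-2b (LOC_Os07g08140), -0.187 for LOC_Os07g32950, -0.505 for LOC_Os10g07210, -0.041 for A-2c (LOC_Os10g28340) and -0.191 for HSP90-6. Under it the booting panicle minus leaf difference became -0.204 for LOC_Os01g04350, -0.100 for LOC_Os06g46600 and -0.203 for B-1 (LOC_Os09g28354). With 1 library left out, the difference against leaves ran from -0.012 to 0.049 for A-1 and from -0.012 to 0.153 for HSP90-6 at flowering, and from -0.196 to 0.266 for LOC_Os01g04350 at booting. With all libraries kept, 23 of the named genes' calls were lost and 10 were gained over all alternatives and comparisons, while 568 kept both direction and side of the threshold. The cause of those changes was not tested. Labels give the groups the same replicate numbers, but same-numbered libraries did not deviate together (correlations of -0.189 to 0.118, over 0.1 in 2 of 9 pairs), so the numbers were not taken as pairs. With the replicate block 22, 23 and 36 members were called, as without it, and no call of a named gene changed.

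The share of promoters with a heat shock element and its alternative were not run, since no promoter sequence was used here. Read depth was not used here, so the precision of low values is known only from the 3 libraries of a group, and the peak lists carry no values per library.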

Other observations

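Some members had a peak in a group where their mean input level was under 1 FPKM. They numbered 9 for the flowering panicle, 4 for the leaf and 3 for the booting panicle. In the same order 29 of 38, 32 of 36 and 35 of 38 members with a peak reached 1 FPKM. Over all genes of those lists 14217 of 16709, 13226 of 16665 and 14047 of 16489 did. The 18.8 kDa class V gene LOC_Os07g33350 had 2 entries in the leaf list, with folds of 1.55 and 1.56.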
